A study of Homo sapiens with 12 samples.

Results

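The genes described here are the receptor tyrosine kinases with a known place in neuroblastoma, together with the neurotrophin receptor NGFR. They were chosen by name: ALK, RET, NTRK2, NTRK3, NGFR, IGF1R, KIT, ERBB2 and ERBB3. Of these 9 genes, 8 had a row in both deposited tables, among 18987 genes that the tables share, and NTRK2 was not analysed here. The RNA came from IMR5 cells, a human neuroblastoma line in long use that carries an amplified MYCN oncogene. In the first table, 3 libraries came from cells grown with DMSO and 3 from cells kept for 24 h in 100 nM selinexor, a drug that blocks XPO1, the receptor that carries proteins and some RNAs out of the nucleus. In the second table, 3 libraries came from cells nucleofected with control siRNA and 3 from cells nucleofected with an siRNA against XPO1 (number 10), with RNA taken after 72 h. The labels give no time for the DMSO cells. All groups are of 1 line, the knockdown rests on a single siRNA, and the labels do not call the replicates separate cultures. The p-values therefore measure spread between these samples alone, and that spread may be technical.

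Receptor tyrosine kinases are membrane proteins that bind a growth factor outside the cell, pair up, and phosphorylate each other and adaptor proteins inside it, which feeds the RAS to ERK and PI3K to AKT pathways. In the sympathetic nervous system, from which neuroblastoma arises, neurotrophins act through NTRK receptors and NGFR, and GDNF family ligands act through RET with a GFRA co-receptor. ALK is the kinase most often mutated in neuroblastoma, NGFR is a death-domain receptor of the TNF receptor family with no kinase, and ERBB3 is a receptor whose own kinase is nearly inactive and which signals through a partner such as ERBB2.

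Values are the authors' normalized read counts, in which each library was scaled by its own size factor, given as mean ± SD (n = 3). Changes are limma log2 fold changes of (value + 1), with a standard error (SE) and a Benjamini-Hochberg adjusted p over all genes tested, and a gene passes at an adjusted p under 0.05. Estimated depth was 26.9 to 55.8 M reads per library. Selinexor replicate 1 stood apart, with a log2 correlation of 0.974 to 0.977 with the other selinexor libraries, which correlated at 0.991 with each other. RN7SL1 and RN7SL2 took 9.40% to 9.72% of the values with DMSO and 12.61% to 15.96% with selinexor, which was not tested as a source of any result. XPO1, the siRNA's target, read 18568, 18950 and 18908 with control siRNA and 4260, 4377 and 4397 with XPO1 siRNA (log2 fold change -2.11, SE 0.0311, limma adjusted p = 2.91e-14). With selinexor, XPO1 (0.085, adjusted p = 0.623) and MYCN (0.088, adjusted p = 0.479) did not pass, and with knockdown MYCN rose by 0.30 (adjusted p = 4.82e-06). Of 15 adrenergic markers 14 had a row in the selinexor table, and TH had no row there and averaged under 10 in the knockdown table. Of 8 leukocyte and endothelial markers 5 had no row in either table. The other 3 summed to 50.7 to 53.3 with DMSO and 79.7 to 109 with selinexor, and to 46.7 to 58 with control siRNA and 95.4 to 101 with XPO1 siRNA. The endothelial marker CDH5 rose in both comparisons (limma adjusted p = 0.00365 and 6.08e-05), while CD74 and KDR did not pass where tested.

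With selinexor, 2 of the 8 receptor genes rose (NGFR and ERBB3) and 2 fell (RET and KIT). With XPO1 siRNA, 2 rose (ALK and ERBB2) and 2 fell (NTRK3 and NGFR). Among all genes tested, 49.2% passed with selinexor and 54.5% with knockdown, so 4 of 8 in each is near the background. A change of 1 or more on the log2 scale that passed was seen for NGFR and ERBB3 with selinexor (15.1% of all tested genes) and for ERBB2 with knockdown (4.83%). The median log2 fold change of the 8 genes was 0.28 with selinexor, against -0.0076 for all tested genes, and 0.019 with knockdown, against 0.0024. All 8 genes passed the filter on low values (a mean of 10 or more in a table). ERBB3 passed it with selinexor only through the treated group, since its DMSO mean was under 10. NGFR was the single receptor gene that passed in both comparisons, and it did so in opposite directions. Its knockdown change was small (-0.14 on the log2 scale) and passed under 12 of 15 alternatives. The share of all genes that passed in both comparisons was not counted, so this is a description only. In RNA from bulk cultures, a change in how many cells hold a transcript and a change in its amount per cell cannot be told apart.

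**Figure D1:**
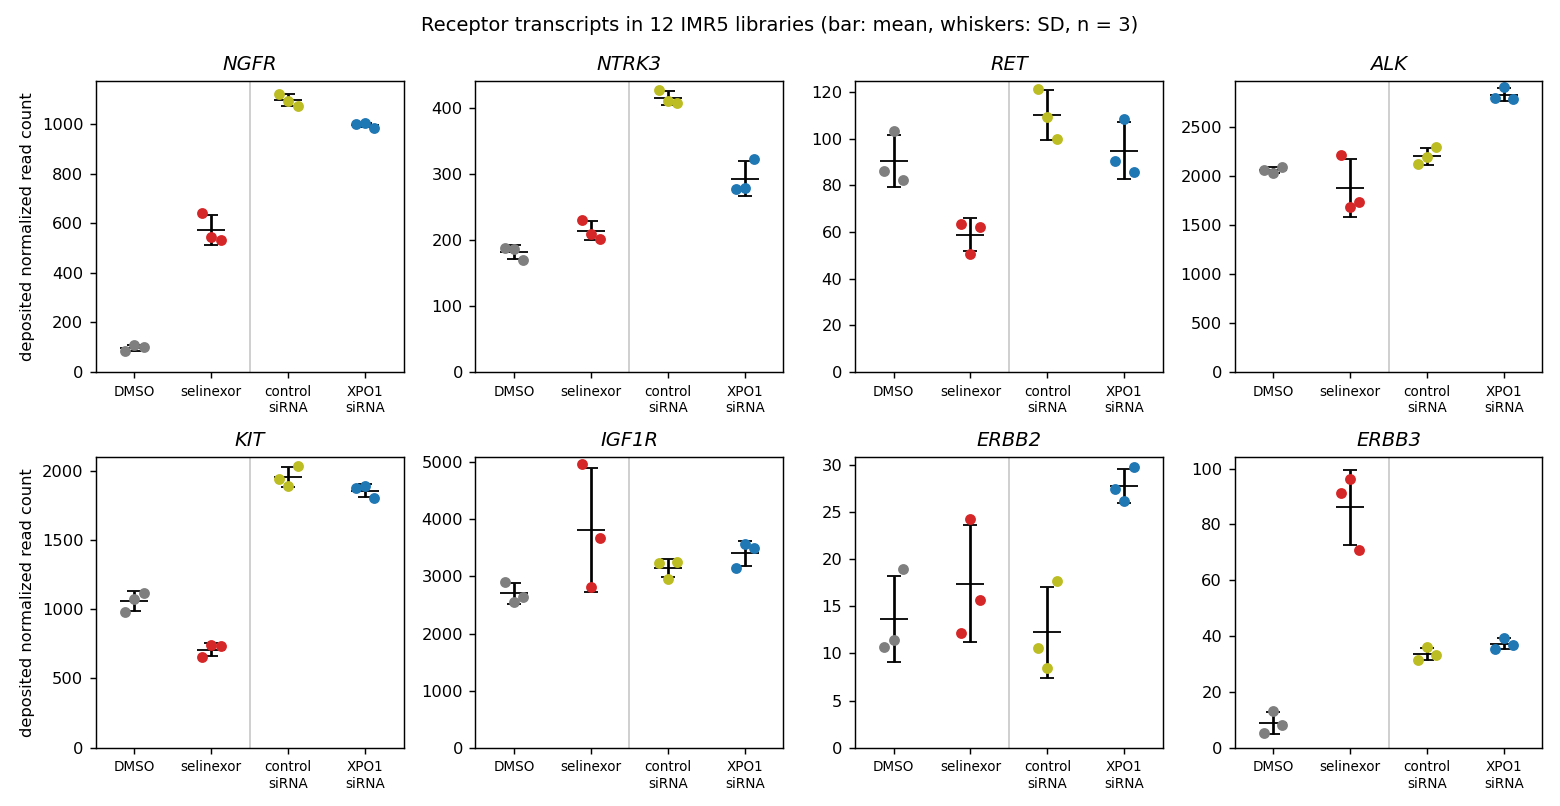
Deposited normalized read count (y axis, from 0) of the 8 receptor genes in the 4 groups (x axis), with each library as a point, the mean as a bar and the SD as whiskers. NGFR and ERBB3 stand higher in all 3 selinexor libraries than in any DMSO library, and IGF1R is spread widely with selinexor, from 2807 to 4973. The grey line separates the 2 tables, which the authors normalized separately.

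The sequences before the transcription start are shown for the 5 receptor genes that passed in a comparison and have an entry in RefSeq's promoter table (GRCh38.p14). They are RET and KIT, which fell with selinexor, ALK and ERBB2, which rose with knockdown, and NTRK3, which fell with knockdown. NGFR and ERBB3 have no entry, and of the 2 entries of ALK and of RET the one farther upstream is shown. Each is the 250 bases before the start, 5′ to 3′ on the gene's strand, with matches on either strand in capitals to any of 6 motifs: the E-box CACGTG, the GC box GGGCGG, the EGR motif GCGNGGGCG, the AP-1 motif TGANTCA, the CRE TGACGTCA and the p53 half-site. RET is at chr10:43076819-43077068 on the plus strand, KIT at chr4:54657707-54657956 on the plus strand, ALK at chr2:29921587-29921836 on the minus strand, NTRK3 at chr15:88256740-88256989 on the minus strand and ERBB2 at chr17:39687844-39688093 on the plus strand.
RET: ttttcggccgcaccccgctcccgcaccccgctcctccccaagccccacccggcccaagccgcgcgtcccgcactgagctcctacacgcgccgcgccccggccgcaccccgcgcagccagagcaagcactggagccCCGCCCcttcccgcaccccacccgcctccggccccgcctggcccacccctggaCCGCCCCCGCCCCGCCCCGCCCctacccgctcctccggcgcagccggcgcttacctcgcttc
KIT: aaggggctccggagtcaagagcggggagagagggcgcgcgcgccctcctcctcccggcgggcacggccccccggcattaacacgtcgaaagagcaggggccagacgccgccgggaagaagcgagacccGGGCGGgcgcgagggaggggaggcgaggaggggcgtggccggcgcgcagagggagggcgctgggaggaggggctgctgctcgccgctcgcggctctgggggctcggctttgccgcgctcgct
ALK: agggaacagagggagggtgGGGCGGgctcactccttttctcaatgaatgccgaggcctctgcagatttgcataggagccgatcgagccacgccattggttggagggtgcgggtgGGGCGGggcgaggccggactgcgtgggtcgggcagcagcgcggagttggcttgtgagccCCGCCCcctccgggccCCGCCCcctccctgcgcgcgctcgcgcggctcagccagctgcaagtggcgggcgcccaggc
NTRK3: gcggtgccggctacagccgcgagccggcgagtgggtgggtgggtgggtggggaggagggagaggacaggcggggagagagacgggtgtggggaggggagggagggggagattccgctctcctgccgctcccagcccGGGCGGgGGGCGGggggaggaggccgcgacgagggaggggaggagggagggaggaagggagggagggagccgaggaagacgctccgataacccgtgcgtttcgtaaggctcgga
ERBB2: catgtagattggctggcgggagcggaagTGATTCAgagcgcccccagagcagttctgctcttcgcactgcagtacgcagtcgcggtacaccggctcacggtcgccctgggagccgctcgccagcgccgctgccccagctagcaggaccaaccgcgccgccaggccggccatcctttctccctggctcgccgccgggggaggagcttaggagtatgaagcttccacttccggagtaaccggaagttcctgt

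The RET window held 5 matches to the GC box and 1 to the EGR motif, which overlap, the ALK window 4 GC boxes, the NTRK3 window 2, the KIT window 1 GC box and the ERBB2 window 1 AP-1 match and no GC box. Of all 35116 RefSeq promoter windows of this length, 42.6% held a GC box, 8.41% the EGR motif, 6.57% the AP-1 motif, 6.34% the E-box, 1.65% the CRE and 5.57% the p53 half-site. RET, KIT, NTRK3 and ALK are rich in G and C, at 79.6%, 76.4%, 73.2% and 71.6%, and ERBB2 stands at 65.6%, against a median of 58% over all windows. A match is only a run of letters in this window.

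NGFR encodes the low-affinity neurotrophin receptor, which binds all neurotrophins and is also a marker of neural crest and Schwann cells. The gene lies on chromosome 17, 47572655 to 47592380 (hg19). It read 85.1, 108.5 and 99.3 with DMSO and 642, 546.4 and 532.4 with selinexor. Every selinexor library was above every DMSO library. The mean went from 97.6 ± 11.8 to 574 ± 59.7, a 5.83-fold rise (log2 fold change 2.54, SE 0.133, 95% interval 2.24 to 2.85, limma adjusted p = 3.54e-06), the 188th largest log2 fold change among 18128 tested genes.

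With knockdown, NGFR read 1122, 1094 and 1074 with control siRNA and 999.4, 1003 and 985.8 with XPO1 siRNA. The XPO1 siRNA libraries were all lower, by a small margin. The log2 fold change was -0.14 (SE 0.0457, limma adjusted p = 0.0197). This call was lost with libraries rescaled to equal totals (log2 fold change -0.049, adjusted p = 0.388), without control siRNA replicate 1 (0.0614) and without XPO1 siRNA replicate 3 (0.0647). The effects of selinexor and of knockdown on NGFR differed by 2.68 on the log2 scale (SE 0.135, limma adjusted p = 4.45e-08). The 2 experiments started from different levels of NGFR: its control siRNA mean of 1097 was 11.2 times its DMSO mean, while the median ratio over all genes was 1.12 and the central 95% of genes lay between 0.496 and 2.46. The tables were normalized separately, and nucleofection, time and table cannot be told apart in this ratio.

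NTRK3 encodes TrkC, the receptor of neurotrophin 3 (chromosome 15, 88418230 to 88800000). It read 188.3, 186.2 and 169.7 with DMSO and 230.4, 209.3 and 201.9 with selinexor. The groups did not overlap, as was so for 61.7% of all genes tested, and the change, 0.24 on the log2 scale (95% interval -0.025 to 0.50, SE 0.114, limma adjusted p = 0.118), did not pass. With control siRNA it read 427.4, 410.8 and 407.8, and with XPO1 siRNA 277.1, 278.1 and 322.6. All 3 XPO1 siRNA libraries were below the control libraries, a fall of 0.51 on the log2 scale (SE 0.0793, adjusted p = 0.000107), and this held under all 15 alternatives. The effects of selinexor and knockdown on NTRK3 differed by 0.74 (SE 0.13, adjusted p = 0.000917). The table gives 1 value per gene, so full-length and kinase-less forms of NTRK3 were not separated.

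RET encodes the receptor of GDNF family ligands (chromosome 10, 43572475 to 43625800). It read 86.0, 103.2 and 82.1 with DMSO and 63.6, 50.7 and 62.2 with selinexor, which is 308 and 158 estimated reads in all. The selinexor libraries were all below the DMSO libraries. RET fell by 0.61 on the log2 scale (SE 0.17, limma adjusted p = 0.0172), a call lost without DMSO replicate 2 (adjusted p = 0.0803). With knockdown it read 121.1, 109.3 and 99.9 against 90.3, 108.5 and 85.7, and the groups overlapped. That change, -0.22 on the log2 scale (95% interval -0.51 to 0.081, adjusted p = 0.204), did not pass. The difference between the effects, -0.40 (SE 0.211, adjusted p = 0.173), did not pass either.

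ALK, the anaplastic lymphoma kinase, is the receptor of the ALKAL ligands (chromosome 2, 29415640 to 30144433). It read 2064, 2030 and 2095 with DMSO and 2215, 1685 and 1734 with selinexor. Selinexor replicate 1 lay above the DMSO libraries and the other selinexor libraries below them. The log2 fold change was -0.15 (SE 0.113, limma adjusted p = 0.31), and without selinexor replicate 1 it was -0.27 (adjusted p = 0.000345). With knockdown ALK read 2122, 2197 and 2296 against 2799, 2906 and 2786, with no overlap, which 60.4% of all tested genes also showed. It rose by 0.36 on the log2 scale (SE 0.0409, adjusted p = 6.14e-06), a 1.28-fold change that held under all 15 alternatives. The effects on ALK differed by -0.51 (SE 0.123, adjusted p = 0.00747). Within each library the log2 ratio of RET to ALK, each with 1 added, which a size factor hardly moves, went from -4.50 ± 0.195 to -4.97 ± 0.168 with selinexor and from -4.32 ± 0.194 to -4.89 ± 0.143 with knockdown (exact two-sided permutation p = 0.1 for each, the smallest that 3 against 3 allows).

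KIT encodes the receptor of stem cell factor (chromosome 4, 55524085 to 55606882). It read 976.5, 1074 and 1117 with DMSO and 656.4, 737.7 and 731.1 with selinexor. The selinexor libraries were all lower. KIT fell by 0.57 on the log2 scale (SE 0.095, limma adjusted p = 0.00143), a 1.49-fold change that held under all 15 alternatives. With knockdown it read 1937, 1892 and 2031 against 1876, 1888 and 1801, groups that lie next to each other without overlap, and the log2 fold change of -0.074 (95% interval -0.17 to 0.018, adjusted p = 0.16) did not pass and turned to 0.016 with libraries rescaled to equal totals. The effects on KIT differed by -0.50 (SE 0.0989, adjusted p = 0.00208).

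IGF1R encodes the receptor of insulin-like growth factors (chromosome 15, 99192200 to 99507760). It read 2909, 2556 and 2643 with DMSO and 4973, 2807 and 3668 with selinexor. The highest selinexor value was that of replicate 1, and the lowest lay within the DMSO range. The change, 0.46 on the log2 scale (SE 0.183, 95% interval 0.042 to 0.88, limma adjusted p = 0.0659), did not pass. It was 0.25 without selinexor replicate 1 (adjusted p = 0.0273) and 0.66 without selinexor replicate 2 (adjusted p = 0.00651), so both calls and sizes moved with single libraries. With knockdown IGF1R read 3228, 2961 and 3250 against 3156, 3567 and 3490, and the groups overlapped. That log2 fold change was 0.11 (SE 0.0508, adjusted p = 0.0764). It passed with libraries rescaled to equal totals (0.20, adjusted p = 0.00678) and without XPO1 siRNA replicate 1 (0.17, adjusted p = 0.0105).

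ERBB2 and ERBB3 encode receptors that signal as a pair when neuregulins bind ERBB3. ERBB3 (chromosome 12, 56473641 to 56497290) read 5.16, 13.2 and 8.12 with DMSO and 91.2, 96.2 and 70.9 with selinexor, which is 30 and 232 estimated reads in all. Every selinexor library was far above every DMSO library. ERBB3 rose 9.31-fold on this scale (log2 fold change 3.22, SE 0.331, 95% interval 2.46 to 3.98, limma adjusted p = 0.00012), the 92nd largest log2 fold change tested. ERBB3 passed the filter on low values only through the selinexor group, so this rank is a description. With 5 added to each value in place of 1, the log2 fold change was 2.75, so its size depends on the value added. With knockdown it read 31.6, 36.1 and 33.0 against 35.4, 39.3 and 36.9, and the groups overlapped. That log2 fold change of 0.15 (95% interval -0.28 to 0.57, adjusted p = 0.565) did not pass, and the effects on ERBB3 differed by 3.07 (SE 0.375, adjusted p = 5.72e-05). As for NGFR, the control siRNA level of ERBB3, 33.6 ± 2.30, was above its DMSO level of 8.84 ± 4.09, here 3.80 times.

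ERBB2 (chromosome 17, 37844167 to 37886680) was barely expressed. It read 10.7, 11.5 and 19.0 with DMSO and 12.2, 24.3 and 15.7 with selinexor, groups that overlapped (log2 fold change 0.32, 95% interval -0.54 to 1.17, limma adjusted p = 0.507). With control siRNA it read 10.5, 8.49 and 17.7 and with XPO1 siRNA 27.4, 26.2 and 29.8, or 40 and 92 estimated reads in all. The XPO1 siRNA libraries were all higher, and ERBB2 rose 2.26-fold (log2 fold change 1.18, SE 0.314, adjusted p = 0.00588). The ERBB2 row overlaps those of MIEN1 and PGAP3 on the opposite strand, and the use of strand in counting is not given in the sources used here, so reads of the 3 genes cannot be told apart. MIEN1 went from 523 ± 28.6 to 484 ± 27.6 with knockdown and PGAP3 from 60.9 ± 4.69 to 81.0 ± 20.3, and neither passed (adjusted p = 0.189 and 0.101). The log2 ratio of ERBB2 to ERBB3 within a library fell from 0.62 ± 0.71 to -2.28 ± 0.458 with selinexor and went from -1.44 ± 0.554 to -0.41 ± 0.14 with knockdown (exact two-sided permutation p = 0.1 for each, the smallest possible).

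**Figure D2:**
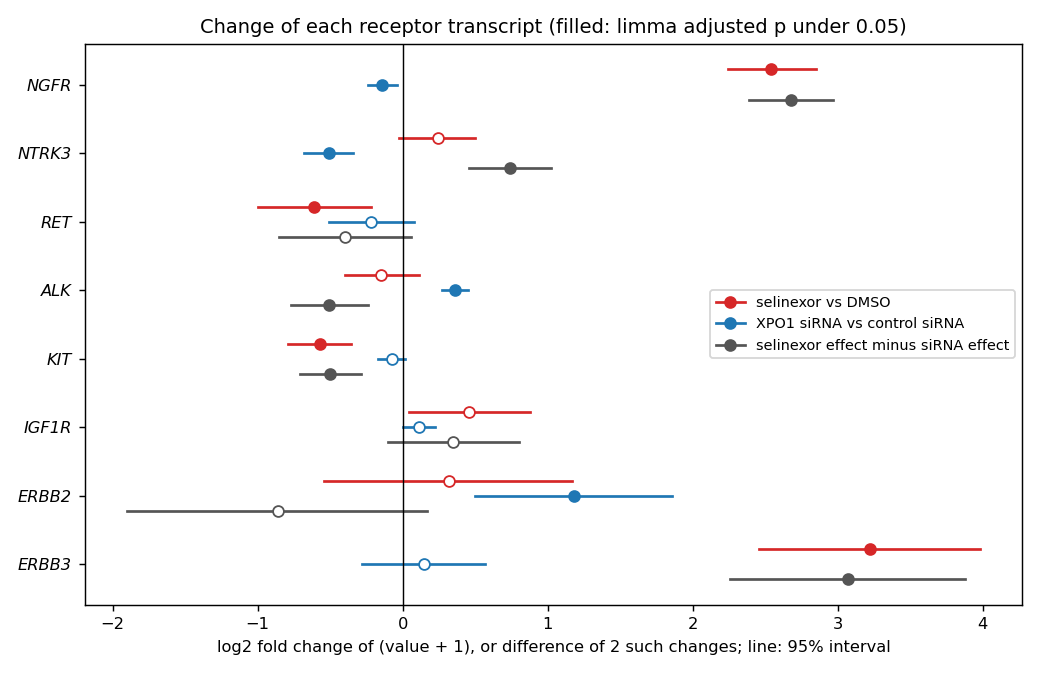
Log2 fold change of (value + 1) of each receptor gene (x axis) with selinexor, with XPO1 siRNA, and the difference of those effects, with 95% intervals as lines and filled points where the limma adjusted p was under 0.05. NGFR at 2.54 and ERBB3 at 3.22 lie far to the right with selinexor and near 0 with XPO1 siRNA.

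The effects of the drug and of the siRNA differed for 5 of the 8 receptors (NGFR, ERBB3, NTRK3, ALK and KIT), where 30.9% of all 17864 genes in that fit differed. For NGFR and ERBB3 the difference was 1 or more on the log2 scale, as it was for 7.19% of all genes. NGFR and ERBB3 also belong to the fixed list of Schwann cell and glial markers, of which S100B, CDH19 and GFAP had no row. Without NGFR and ERBB3, the summed value of the other 7 listed genes was 3555 to 3784 with DMSO and 2305 to 2480 with selinexor, and 4125 to 4356 with control siRNA against 3639 to 3747 with XPO1 siRNA, so the sum was lower in both treated groups. The listed genes moved apart. With selinexor FOXD3, a neural crest factor, rose from 22.0 ± 4.35 to 85.3 ± 17.3 (limma adjusted p = 0.000293) and CNP and PMP22 fell (0.000229 and 0.00169). SOX10, at 15.3 ± 4.24 and 20.0 ± 9.22, did not pass (0.524). The part of these markers in the rise of NGFR and ERBB3 was not tested. The summed mesenchymal markers were 26301 to 27396 with DMSO and 19607 to 22201 with selinexor, and 25434 to 26268 with control siRNA and 19511 to 19760 with XPO1 siRNA, with 6 of 11 tested genes lower and 1 higher in each comparison. The summed adrenergic markers were 66165 to 68434 with DMSO and 85660 to 92695 with selinexor, where 9 of 14 tested genes rose and 1 fell. They were 75517 to 77573 with control siRNA and 97956 to 104426 with XPO1 siRNA, where 10 of 14 rose and none fell. Of all tested genes, 22.9% rose and 26.3% fell with selinexor, and 25.9% rose and 28.6% fell with knockdown. VIM made up most of the mesenchymal sum, at 17043 ± 372 with DMSO and 13044 ± 879 with selinexor. It stood at 16598 ± 357 with control siRNA and 11864 ± 108 with XPO1 siRNA. The mesenchymal sum was lower and the adrenergic sum higher in both treated groups, and the part of these markers in the changes of the receptor genes was not tested.

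Set per kilobase of exon, ALK was the highest receptor with DMSO at 313 ± 4.97, followed by IGF1R (221 ± 15.0) and KIT (204 ± 13.8), whose libraries overlapped. NGFR (26.6 ± 3.21), RET (14 ± 1.75), NTRK3 (7.17 ± 0.402), ERBB2 (2.42 ± 0.807) and ERBB3 (1.19 ± 0.55) followed, and each stood clear of the next. With selinexor, IGF1R (312 ± 89.1) and ALK (285 ± 44.5) overlapped at the top, NGFR came next at 156 ± 16.2, above KIT at 137 ± 8.70, and ERBB3 at 11.6 ± 1.80 overlapped RET at 9.14 ± 1.10, which overlapped NTRK3 at 8.46 ± 0.586. ERBB2 was last at 3.08 ± 1.10.

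With control siRNA the order per kilobase was KIT (377 ± 13.7), ALK (334 ± 13.2), NGFR (298 ± 6.56), IGF1R (257 ± 13.2), RET (17.1 ± 1.64), NTRK3 (16.4 ± 0.419), ERBB3 (4.52 ± 0.31) and ERBB2 (2.16 ± 0.857), and of neighbours only RET and NTRK3 overlapped. With XPO1 siRNA, ALK was first at 429 ± 9.98, KIT second at 358 ± 9.07, and IGF1R (278 ± 17.9) and NGFR (271 ± 2.48) overlapped. RET followed at 14.7 ± 1.87 and NTRK3 at 11.6 ± 1.03, and ERBB3 (5.01 ± 0.265) and ERBB2 (4.91 ± 0.319) overlapped at the bottom. Lengths are those of all exons of GENCODE 29 joined. That of NTRK3 was 25284 bases (19984 for its longest transcript), against 3676 to 12235 for the other receptors. Which forms of NTRK3 the cells hold was not measured, so its place in the order depends on this length. With the longest transcript instead, RET and NTRK3 changed places in the selinexor and control siRNA groups and IGF1R and NGFR in the XPO1 siRNA group, and KIT and ALK with control siRNA, ERBB2 and ERBB3 with DMSO and RET and NTRK3 with XPO1 siRNA then overlapped.

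**Figure D3:**
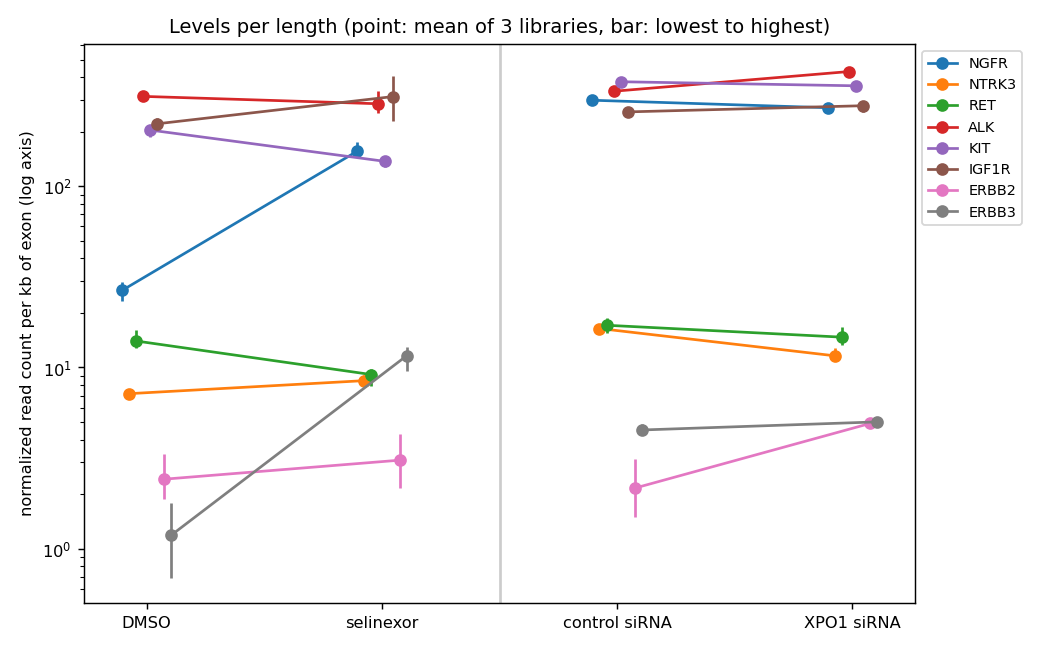
Normalized read count per kilobase of exon (y axis, log scale) of each receptor gene in the 4 groups, as the mean of 3 libraries with a bar from the lowest to the highest. ALK, KIT and IGF1R stay within 137 to 429 in every group, while NGFR stands at 26.6 with DMSO and at 156 to 298 in the other groups.

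Ligands of these receptors rose in 8 of 11 tested cases with selinexor and none fell, where 22.9% of all tested genes rose, and their median log2 fold change was 0.93. The neuregulin gene NRG1, whose product binds ERBB3 and ERBB4, went from 222 ± 8.08 to 877 ± 17.0 (3.94-fold, limma adjusted p = 1.73e-06). NRG2 went from 11.8 ± 2.33 to 47.0 ± 5.11 (3.78-fold, adjusted p = 0.000449). GDNF, the ligand of RET, went from 9.75 ± 4.10 to 73.0 ± 10.9 (7.15-fold, adjusted p = 0.000154), and its DMSO mean was under 10. BDNF, a ligand of NTRK2 and NGFR, went from 579 ± 5.42 to 876 ± 34.8 (adjusted p = 0.000609). GDNF and 1 other ligand gene passed the filter on low values only through the selinexor group, and without them 6 of 9 rose. Without selinexor replicate 1 the count was 8 higher and 0 lower, and with a mean of 50 or more required it was 5 higher and 0 lower.

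With knockdown, 6 of 11 ligand genes rose and 1 fell, where 25.9% and 28.6% of all tested genes rose and fell, and the median was 0.65. NRG1 went from 363 ± 7.07 to 802 ± 22.9 (2.21-fold, limma adjusted p = 3.1e-09) and NRG4 from 34.9 ± 7.43 to 88.7 ± 7.83 (2.52-fold, adjusted p = 3.92e-05). KITLG, which encodes stem cell factor, the ligand of KIT, went from 256 ± 16 to 518 ± 31.6 (2.02-fold, adjusted p = 1.37e-07). MDK, the growth factor midkine, went from 19193 ± 796 to 30149 ± 1514 (1.57-fold, adjusted p = 2.94e-08).

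Of 24 tested co-receptors and partners, 7 rose and 8 fell with selinexor, where 22.9% of all tested genes rose and 26.3% fell. The median was -0.087, and 4 and 5 fell without DMSO replicate 2 and DMSO replicate 3. ERBB4, the kinase-active neuregulin receptor, went from 34.7 ± 1.36 to 176 ± 36.9 (4.89-fold, limma adjusted p = 2.93e-05). SORCS2, a sorting receptor that pairs with NGFR, went from 35.9 ± 11.5 to 193 ± 30.6 (5.37-fold, adjusted p = 9.75e-05). LRP1, an endocytic receptor, went from 2573 ± 93.0 to 10480 ± 3338 (3.95-fold, adjusted p = 7.83e-05), and EGFR fell from 846 ± 22.9 to 417 ± 26.9 (adjusted p = 5.52e-05). With knockdown 13 of 25 rose and 9 fell, where 25.9% and 28.6% of all tested genes did, with a median of 0.12. There LRP1 rose 1.95-fold (adjusted p = 4e-08), IGF2R 1.54-fold (1.24e-07) and the neurotrophin receptor scaffold KIDINS220 1.47-fold (4.1e-07), while EGFR fell 1.89-fold (1.75e-07).

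The RET co-receptor GFRA2 was named after its values were seen. It fell from 11128 ± 119 to 7179 ± 454 with selinexor (limma adjusted p = 0.000318) and rose from 6670 ± 198 to 8285 ± 77.1 with knockdown (3.35e-06). GFRA2 therefore passed in opposite directions, as NGFR did with the signs the other way round. The share of all genes that did so was not counted.

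Among 26 other receptor tyrosine kinases, 8 rose and 12 fell with selinexor (median -0.22), and of 25 tested with knockdown 8 rose and 11 fell (median -0.22). The shares of all tested genes that rose and fell were 22.9% and 26.3% with selinexor and 25.9% and 28.6% with knockdown. Of the 8 that rose with selinexor, 1 had a DMSO mean under 10, and 5 rose with a mean of 50 or more required. Some of these, such as EGFR, ERBB4, INSR and LTK, are also in the list of co-receptors and partners. DDR1, a collagen receptor, rose 2.17-fold with selinexor (limma adjusted p = 2.66e-05) and 1.52-fold with knockdown (9.52e-07). TYRO3, a receptor of the TAM family, fell 2.13-fold with selinexor (4.03e-05). FGFR4 fell from 637 ± 22.5 to 258 ± 19.6 with knockdown (2.46-fold, 9.38e-09) and PDGFRA from 3813 ± 127 to 2466 ± 93.4 (1.55-fold, 3.29e-08).

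Adaptors and effectors below the receptors moved in both directions. With selinexor 11 of 46 rose and 16 fell (median 0.0014), and with knockdown 15 rose and 15 fell (median 0.00049), beside the same shares of all tested genes. The adaptor gene SHC1 rose 1.78-fold with selinexor (limma adjusted p = 0.000121) and 1.48-fold with knockdown (1.25e-08). IRS2, an adaptor of IGF1R and the insulin receptor, rose 3.15-fold (1.16e-05) and 1.57-fold (2.18e-06). PIK3CD, a PI3K catalytic subunit gene, went from 22.0 ± 4.40 to 104 ± 15.8 with selinexor (9.29e-05), and the adaptor CRK fell 1.59-fold (0.000425). The RAS exchange factor SOS2 rose 1.30-fold with knockdown (2.64e-06) and PDPK1, the kinase that activates AKT, 1.27-fold (6.68e-06). Without selinexor replicate 1, 17 rose and 18 fell with selinexor, and without DMSO replicate 2 the numbers were 7 and 8. Without DMSO replicate 1 and DMSO replicate 3, 10 and 7 fell.

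Of 36 negative regulators, 10 rose and 10 fell with selinexor (median 0.031), and of 35 with knockdown 14 rose and 8 fell (median 0.086), again beside those shares. Of the 10 that rose with selinexor, 1 had a DMSO mean under 10. INPP5D, which encodes an inositol phosphatase acting on the product of PI3K, went from 16.1 ± 4.94 to 724 ± 48.2 with selinexor (limma adjusted p = 9.06e-07) and from 16.9 ± 8.32 to 558 ± 9.83 with knockdown (1.19e-09). The ubiquitin ligase gene CBLB rose 1.73-fold (0.000135) and 1.44-fold (1.82e-06). The IGF binding protein gene IGFBP5 rose 2.30-fold (2.79e-05) and 1.44-fold (2.28e-07), and SOCS1 rose 4.64-fold with selinexor (0.000258). IGFBP2 fell from 5440 ± 174 to 3002 ± 81.6 with knockdown (1.81-fold, 6.41e-10).

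Genes known as transcriptional output of ERK signalling rose in 18 of 20 tested cases with selinexor and none fell, with a median log2 fold change of 1.49, against 22.9% of all genes rising. EGR1 went from 24.1 ± 0.274 to 374 ± 40.9 (limma adjusted p = 5.47e-07) and FOS from 21.5 ± 3.61 to 204 ± 34.9 (7.09e-06). DUSP4, an ERK phosphatase gene, rose 3.85-fold (1.32e-06) and the ephrin receptor gene EPHA2 4.10-fold (3.1e-06). Of the 18, 2 had a DMSO mean under 10, and 16 of the other 18 tested genes rose. Without selinexor replicate 1, 18 rose and none fell.

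With knockdown 12 of 19 of these genes rose and 2 fell, where 25.9% and 28.6% of all tested genes did, with a median of 0.72. DUSP4 rose 2.84-fold (limma adjusted p = 1.3e-11), CCND1, which encodes cyclin D1, from 19896 ± 391 to 39790 ± 457 (2.13e-11), the ETS factor gene ETV5 2.43-fold (1.66e-10) and EPHA2 2.17-fold (1.17e-09). The 2 that fell, named after their values were seen, were SPRY1, a feedback inhibitor gene (148 ± 20.2 to 101 ± 5.29, 0.00309), and PHLDA1 (4942 ± 96.6 to 4498 ± 65.8, 0.0037). Both rose with selinexor, SPRY1 from 63.3 ± 7.99 to 159 ± 7.16 (limma adjusted p = 0.000181) and PHLDA1 from 1769 ± 35.1 to 2489 ± 205 (0.0021). Whether these transcripts moved with the activity of any receptor was not measured.

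**Figure D4:**
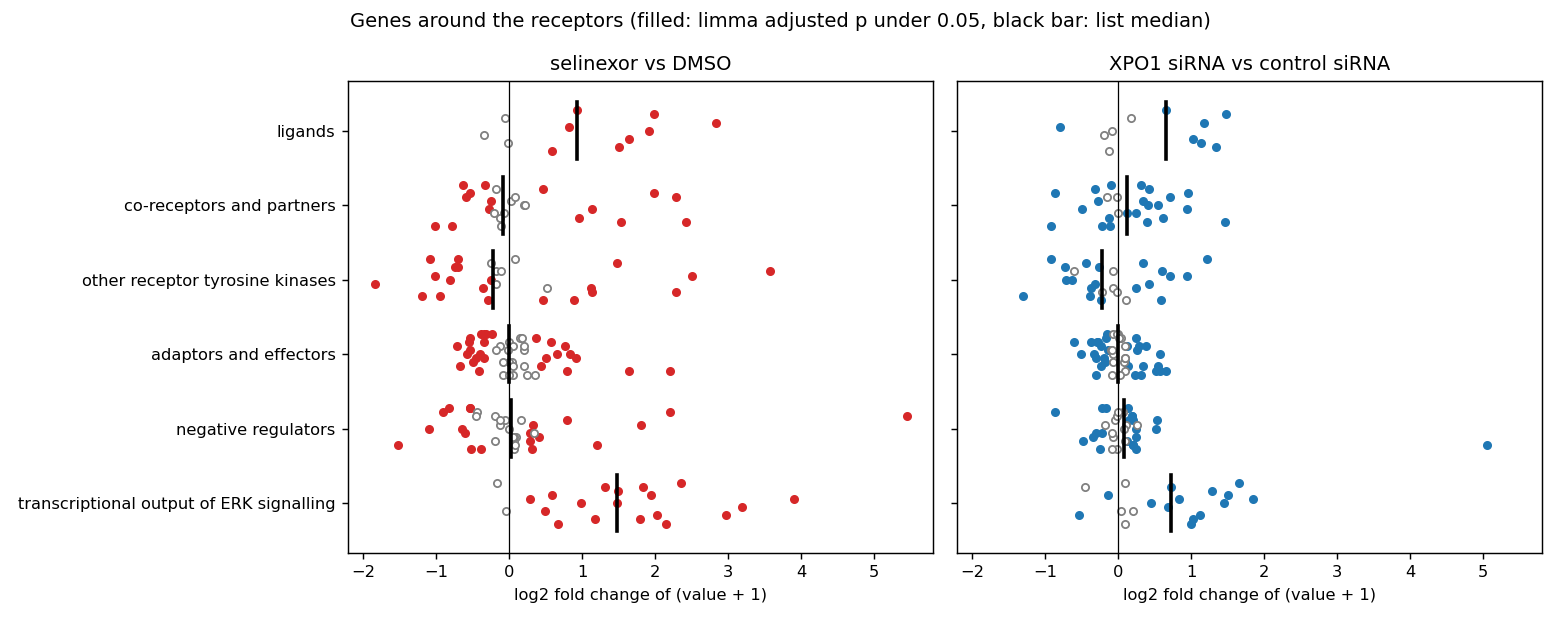
Log2 fold change of (value + 1) (x axis) of each tested gene in 6 lists around the receptors with selinexor (left) and with XPO1 siRNA (right), filled where the limma adjusted p was under 0.05, with a black bar at the list's median. The ligands (medians 0.93 and 0.65) and the ERK output genes (1.49 and 0.72) lie mainly to the right of 0, and the adaptors (0.0014 and 0.00049) are centred on it. The lists were chosen with earlier results of these data known, so this is a description.

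For each receptor that passed in a comparison, the 2 genes with the most similar profile were sought among 17332 genes, as the smallest Euclidean distance over the 12 libraries of log2(value + 1) less the control mean of the same table. This is a description, and the libraries of a group share their treatment. For NGFR they were PODN (distance 0.693) and SOCS1 (0.91), for ERBB3 FOS (1.14) and FST (1.22), and for ERBB2 SLC16A4 (0.945) and ATP6AP1L (0.997), so none lay close. For KIT they were PRPF38A (0.161) and RBBP5 (0.171), for ALK ZNF423 (0.184) and BCOR (0.192), for NTRK3 RNPEP (0.296) and ACSS2 (0.304), and for RET IQCH (0.374) and PKNOX1 (0.375). On the log2 scale the change of PODN was 2.57 with selinexor (limma adjusted p = 4.29e-05) and 0.16 with knockdown (0.265), and that of FOS was 3.19 (7.09e-06) and 0.69 (0.00415).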

How the data were processed

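The deposited values are a signal, namely reads per gene scaled by a size factor for each library. The authors made them with STAR 2.7.3a, Partek and DESeq2 on hg19, per the submitters' processing notes, with the 2 experiments in tables of their own (20029 genes for selinexor, 19610 for knockdown). Annotation, strand setting and counting options were not given in the sources used here. In the knockdown table, 3 further columns match no sample and were not used, and 25 symbols turned into dates were restored from coordinates.

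Depth was estimated from the steps of low values. Of values from 0.3 to 60, 61.7% to 66.6% were whole multiples of a step within 0.02, too few to recover whole reads, and the main test was therefore not a count model. Genes with a mean of 10 or more were fitted with limma 3.58.1 (R 4.3.3, intensity trend, group means only) on log2(value + 1), two-sided. The difference of effects used all 12 libraries. Alternatives were other pseudocounts (0.5, 5), filters (none, 50), scalings, no trend, a replicate block and each library left out; voom on estimated reads and a second gene length were added after the data were seen. The planned ratio of NTRK2 to NTRK3 was not made, since NTRK2 was not analysed here. The steps were tested on simulated data that had a single fixed spread and no outlying library. Changes were placed only in genes above a control level that NGFR, RET, ERBB2 and ERBB3 did not reach with DMSO. The simulation therefore cannot speak for such low genes or for a library that stands apart.

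Members and lists were chosen with earlier results of these data known. Genes named are all members, XPO1, MYCN, up to 4 passing genes with the smallest p per list and comparison, the 2 nearest genes per member, and those said to be named after their values were seen, including marker genes, MIEN1 and PGAP3. Python 3.11.15 with pandas 2.3.3, scipy 1.17.1 and matplotlib 3.10.9 was used. Promoters came from RefSeq's table for 6 of the 8 members, and lengths from GENCODE 29 with no coordinates. A few genes of the lists are counted in them and are not reported here by name.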

Additional observations from a re-analysis of the deposited data

Results flagged for a closer look

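For 5 receptors the effect of selinexor differed from that of XPO1 siRNA in the fit over 12 libraries (limma, adjusted over 17864 genes). The selinexor effect minus the siRNA effect, on the log2 scale, was 3.07 for ERBB3 and 2.68 for NGFR, 0.74 for NTRK3, -0.51 for ALK and -0.50 for KIT. All 5 passed under every alternative that gave a value (ERBB3 has none at a mean of 50 or more), with ranges of 2.62 to 3.38, 2.59 to 2.76, 0.69 to 0.81, -0.63 to -0.43 and -0.56 to -0.45. Agent, dose, time, nucleofection and starting level differ between the experiments and cannot be told apart in these differences.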

How the results depend on the processing

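Every receptor kept its direction under the alternatives run except KIT with knockdown, which did not pass and turned to 0.016 with equal totals. Calls moved in these cases. With equal totals, NGFR with knockdown no longer passed (-0.049) and IGF1R with knockdown passed (0.20). With a replicate block, IGF1R with selinexor passed (0.46, adjusted p = 0.0219), and no other receptor's call changed. Leaving out 1 library each, log2 fold changes with selinexor ran from -0.68 to -0.51 for RET (not passing without DMSO replicate 2), from -0.27 to -0.074 for ALK and from 0.25 to 0.66 for IGF1R. With knockdown they ran from -0.15 to -0.12 for NGFR and 0.07 to 0.17 for IGF1R, and the difference of effects for IGF1R ran from 0.14 to 0.55 (passing without selinexor replicate 2). Same-numbered libraries correlated by 0.0088, 0.12 and -0.042 with selinexor and by -0.031, -0.02 and -0.10 with knockdown in their deviations, so the numbers were not taken to pair samples. Leaving out 1 library each, XPO1 with selinexor ran from -0.019 to 0.25 (passing without selinexor replicate 1) and MYCN from -0.0033 to 0.15. NRG2 with knockdown (1.48, adjusted p = 0.0298) did not pass without the intensity trend (0.124), nor without control siRNA replicate 1 (0.73, 0.084), XPO1 siRNA replicate 1 (1.34, 0.0956) or XPO1 siRNA replicate 3 (1.41, 0.0781). With equal totals, 1 ERK output gene in place of 2 fell with knockdown, and with no filter 2 ligand genes in place of 1. With equal totals, 52.7% of called genes rose with selinexor in place of 46.5%, and 62.4% with knockdown in place of 47.5%. ERBB2 and ERBB3 could not be fitted at a mean of 50 or more. The cause of these shifts was not tested.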
